A study of Mus musculus with 9 samples.

Results

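Killer lymphocytes destroy infected or altered cells by releasing granule proteins and call other immune cells with chemokines and interferon gamma. Transcripts of 10 genes of this kind were followed in the spleen: Nkg7, Prf1, Gzma, Gzmb and Gzmk of the granules, the cytokine gene Ifng, and the chemokine genes Ccl5, Ccl3, Ccl4 and Xcl1. They were taken by symbol from the gene rows of the count files and are 10 of 55385 genes. Each symbol named a single row.

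The data are CITE-seq profiles, in which transcripts and antibody tags are read from the same cells, of total splenocytes of mice. The mice were wild type (WT) or carried R594C, a change in IRE1, on 1 copy (R594C/+) or on both (R594C/R594C). IRE1 is a stress sensor of the endoplasmic reticulum that is encoded by Ern1, and the study asked whether this change alters the immune cells. R594C is the only allele the labels name. They give the same sort for all groups, with DAPI, a dye that enters dead cells. Since a genotype had a capture and a staining of its own, these 3 cannot be told apart. Hashtags, antibodies that mark the cells of a replicate, split WT into 4 replicates, R594C/+ into 4 and R594C/R594C into 2. Whether replicates are different animals is not in the labels, so the p-values cover only the spread seen between them.

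The captures held 16027, 17980 and 17444 barcodes, with 68 to 89 barcodes shared by any pair of captures. After hashtag and doublet filters 40987 cells remained, with 2936 to 7275 cells and 12992526 to 27537087 UMIs (molecular tags that mark single transcripts) per replicate. Xist, a transcript of the inactive X chromosome, was at 1227 to 1384 CPM (UMIs scaled to the same total in every library) in WT replicate 2, all R594C/+ replicates and R594C/R594C replicate 2 and at 6.78 to 26.8 CPM in the others, so R594C/+ against WT is close to a contrast of expressed sex.

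The cells were grouped without the 10 genes. They took no part in the clustering, in the doublet scores or in the names of clusters. Naive CD8 T-like cells were 1 cluster of 2967 cells, memory CD8 T-like cells were clusters 7 (1912 cells) and 13 (819 cells), CD4 T-like cells were clusters 3 (3480 cells) and 9 (1826 cells), and NK-like cells were clusters 16 (677 cells) and 19 (344 cells). Follicular B-like cells (16592) served as background. The names were checked against defining markers. Cd8b1, a chain of CD8, was at 848 CPM in naive and 448 CPM in memory CD8 T-like cells and at 4.33 CPM in NK-like cells, and Ncr1, a receptor of natural killer (NK) cells, was at 746 CPM in NK-like cells and at 6.71 CPM in memory CD8 T-like cells. Cluster 13 was less pure by its antibody tags: 57.9% of its cells carried the CD8 tag and 26.5% the CD4 tag. In cluster 7, 61.5% carried the CD8 tag and 22.8% the NK tag.

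Perforin, the product of Prf1, opens the membrane of the target cell to granzymes, which are proteases that start cell death. NKG7 is a granule membrane protein needed for release. CCL3, CCL4 and CCL5 draw T cells, NK cells and myeloid cells, XCL1 draws the dendritic cells that carry XCR1, and interferon gamma activates macrophages and antigen presentation. NK cells hold many of these transcripts before any stimulus, naive T cells make most of them only after activation, and memory CD8 T cells keep some of them ready.

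RefSeq promoters (GRCm38.p6) were on hand for 8 of the 10 genes, all but Ccl5 and Ccl4. The 250 bases before the start site are shown for 4 of them, each on the gene's own strand. Gzma and Gzmk are 2 granzyme genes of chromosome 13 whose highest levels lay in different classes, and Xcl1 and Nkg7 are the 2 promoters that held both motifs shown. Capitals mark the motifs TGTGGT, the core bound by RUNX factors, and GGTGTGA, the site of T-box factors such as T-bet and Eomes, on either strand.
Gzma, chr13:113100982-113101231, minus strand: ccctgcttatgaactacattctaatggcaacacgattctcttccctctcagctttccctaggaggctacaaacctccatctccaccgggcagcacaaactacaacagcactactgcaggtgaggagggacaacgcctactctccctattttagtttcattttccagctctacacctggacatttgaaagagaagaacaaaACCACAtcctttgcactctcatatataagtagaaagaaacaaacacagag
Gzmk, chr13:113180966-113181215, minus strand: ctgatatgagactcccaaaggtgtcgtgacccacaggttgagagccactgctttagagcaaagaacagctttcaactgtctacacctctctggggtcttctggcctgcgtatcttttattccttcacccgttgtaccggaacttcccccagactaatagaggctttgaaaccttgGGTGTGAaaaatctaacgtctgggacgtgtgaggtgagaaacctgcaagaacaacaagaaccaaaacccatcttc
Xcl1, chr1:164935523-164935772, minus strand: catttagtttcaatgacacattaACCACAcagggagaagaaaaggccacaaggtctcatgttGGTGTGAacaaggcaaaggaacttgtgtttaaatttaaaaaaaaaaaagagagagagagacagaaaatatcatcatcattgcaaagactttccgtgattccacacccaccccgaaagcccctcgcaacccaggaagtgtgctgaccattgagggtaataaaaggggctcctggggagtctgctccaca
Nkg7, chr7:43436888-43437137, plus strand: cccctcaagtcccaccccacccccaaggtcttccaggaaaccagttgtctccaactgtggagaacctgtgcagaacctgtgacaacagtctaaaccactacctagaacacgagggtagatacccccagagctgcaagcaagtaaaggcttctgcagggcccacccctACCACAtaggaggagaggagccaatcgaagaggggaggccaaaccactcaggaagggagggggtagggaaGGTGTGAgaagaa
The RUNX core stood in 6 of the 8 promoters (Gzma, Gzmb, Prf1, Nkg7, Xcl1 and Ccl3) and in 14% of all 32851 promoters of this length. The T-box site stood in 3 of the 8 (Gzmk, Nkg7 and Xcl1) and in 3.33% of all. None of the marked motifs overlapped another. A motif of STAT factors, also searched, was not found in these 8 promoters and is not shown. A match is a match of letters and was not tested as a binding site.

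Levels over the cell classes come first. They are given as CPM, the gene's UMIs scaled to the UMI total of the class in that replicate, and as mean ± SD over the 10 replicates. They describe the classes and carry no test, since the classes were cut from transcripts of the same cells.

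The granule genes were highest in NK-like cells, apart from Gzmk. Nkg7 stood at 2472 ± 333 CPM in NK-like, 1280 ± 274 in memory CD8 T-like, 481 ± 103 in naive CD8 T-like, 63.4 ± 18.5 in CD4 T-like and 6.66 ± 1.52 in follicular B-like cells. Each class was above the next in every replicate, so this gene alone ordered the 5 classes. Prf1 was at 818 ± 152 CPM in NK-like, 113 ± 18.5 in memory and 43.9 ± 10.9 in naive CD8 T-like cells, again with no overlap between replicates. CD4 T-like cells at 14.0 ± 7.17 CPM and follicular B-like cells at 4.70 ± 1.70 CPM overlapped for Prf1.

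Gzma and Gzmb encode granzymes of different cutting preference. Gzma was at 5010 ± 954 CPM in NK-like cells (4169 to 7386) against 17.1 to 273 CPM in memory CD8 T-like cells. In the other 3 classes Gzma was at 3.37 to 5.11 CPM on average, and these 3 overlapped. Gzmb was at 506 ± 155 CPM in NK-like cells, 53.5 ± 25.7 in memory CD8 T-like cells and under 6.39 CPM in every replicate of the other 3 classes. Gzmk, a further granzyme gene, had the opposite order. It was at 16.45 to 143 CPM in memory CD8 T-like cells, with 0 CPM in 8 of 10 replicates of NK-like cells and no more than 2.94 CPM in the other 2.

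The cytokine and chemokine genes each had an order of their own. Ifng was at 1010 ± 200 CPM in NK-like, 458 ± 170 in memory CD8 T-like and 187 ± 61.5 in CD4 T-like cells, against 17.9 ± 30.2 in naive CD8 T-like and 3.84 ± 1.21 in follicular B-like cells. In CD4 T-like cells Ifng came from cluster 9 (481 ± 124 CPM), whose leading genes include Tnfrsf4 and Cd40lg, and not from cluster 3 (3.30 ± 3.60 CPM), led by Igfbp4 and Lef1. Ccl5 reached 15390 ± 1057 CPM in NK-like and 10740 ± 3040 CPM in memory CD8 T-like cells, and these 2 classes overlapped between replicates. Naive CD8 T-like and CD4 T-like cells held 107 ± 74.3 and 192 ± 76.1 CPM of Ccl5.

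Xcl1, Ccl3 and Ccl4 were NK-weighted. Xcl1 was at 1733 ± 344 CPM in NK-like and 253 ± 43.2 in memory CD8 T-like cells, and at 7.54 CPM or less on average in the other 3 classes. Ccl3 was at 2422 ± 558 CPM in NK-like and 113 ± 136 in memory CD8 T-like cells. Ccl4 was at 7895 ± 1658 CPM in NK-like and 738 ± 586 in memory CD8 T-like cells. The RefSeq extents of Ccl3 (chromosome 11, 83647843 to 83649378) and Ccl4 (83648624 to 83664683) overlap, so some UMIs of this pair may be assigned to the wrong gene.

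**Figure D1:**
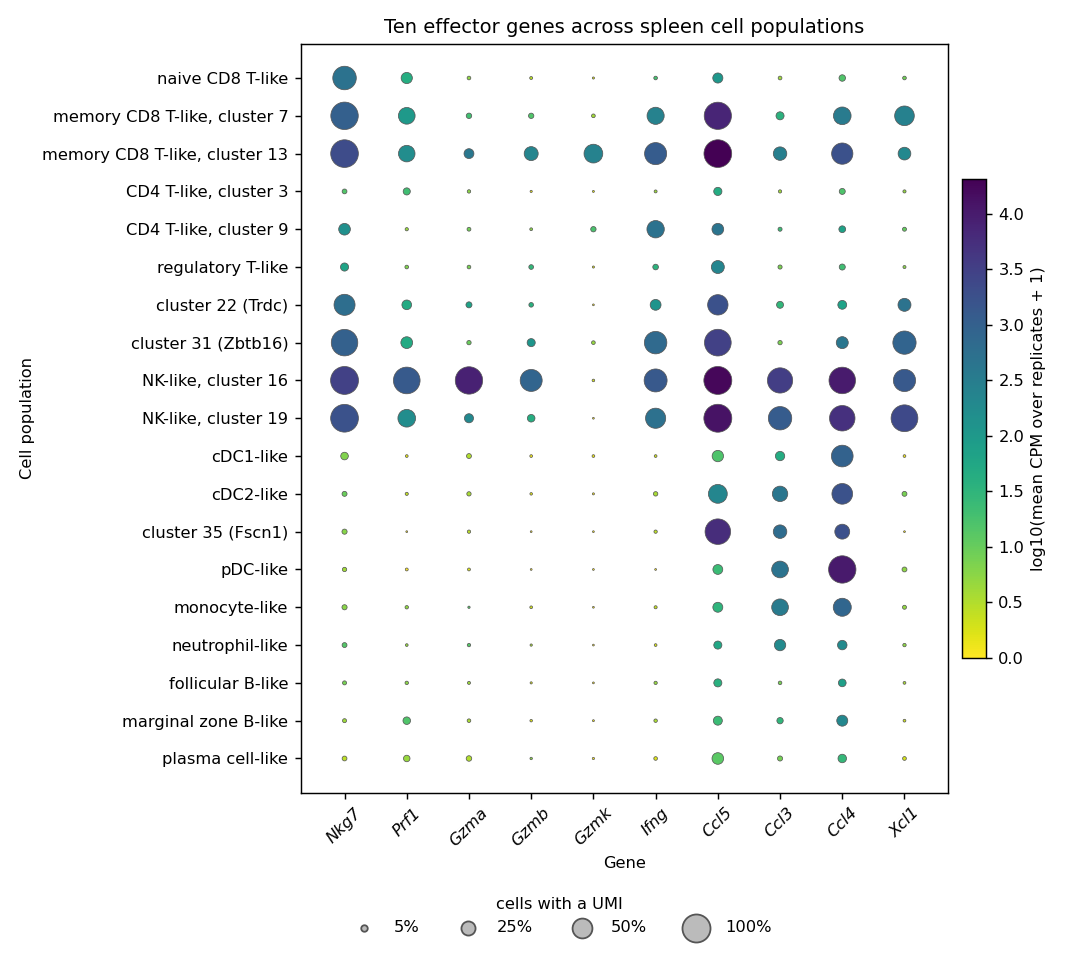
Levels of the 10 genes (columns) in T, NK, dendritic, myeloid and B populations (rows). Colour gives log10 of the mean CPM over replicates plus 1, and dot area grows with the percent of cells with a UMI. Gzmk stands out in cluster 13 (266 CPM), Gzma in cluster 16 (8436 CPM) and Ccl4 in NK-like and plasmacytoid dendritic cell-like (pDC-like) rows, and follicular B-like cells are pale except for Ccl4 (79.2 CPM) and Ccl5 (36.2 CPM).

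The NK-like and memory CD8 T-like classes were not uniform. Cluster 16 of the NK-like cells, whose top genes include Klra4, Klra8 and Cma1, held 8436 ± 1283 CPM of Gzma, and cluster 19, led by Ncr1, Klra7 and Cd160, held 200 ± 229. Gzmb was at 841 ± 216 against 42.5 ± 56.0 CPM and Prf1 at 1282 ± 183 against 163 ± 46.9 CPM. Xcl1 ran the other way, at 1329 ± 311 CPM in cluster 16 and 2320 ± 684 in cluster 19. The most Gzma and the most Xcl1 of NK-like cells thus lay in different clusters, while Nkg7 was at 3020 ± 395 CPM in cluster 16 and 1712 ± 212 CPM in cluster 19.

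Among memory CD8 T-like cells, cluster 7, led by Gzmm, Sidt1 and Ly6c2, held 3.01 ± 1.51 CPM of Gzmk, and cluster 13, led by Rgs16, Eomes and Fasl, held 266 ± 99.2. Ifng was at 267 ± 73.7 against 1210 ± 388 CPM, Gzmb at 14.6 ± 12.9 against 223 ± 124 CPM and Ccl5 at 7495 ± 1063 against 20830 ± 4714 CPM. The replicates of the 2 clusters did not overlap for Gzmk, Ifng, Gzmb or Ccl5. Xcl1 was at 278 ± 72.4 CPM in cluster 7 and 203 ± 71.4 in cluster 13, which overlapped.

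Some of the 10 genes had large sources outside T and NK cells. Of all UMIs of a gene in the kept cells, NK-like cells gave 89.7% for Gzma and 55.7% for Xcl1, and memory CD8 T-like cells gave 77.5% for Gzmk and 63.5% for Ccl5. Ccl4 was spread most widely: 35.3% came from NK-like cells, 13.3% from plasmacytoid dendritic cell-like cells, which were 0.366% of cells, and 11.6% from type 2 dendritic cell-like cells. In the plasmacytoid class 95.3% of cells held a Ccl4 UMI, at 10410 CPM. Cluster 35, led by Fscn1 and Il12b, genes of activated dendritic cells, held 5785 CPM of Ccl5 in 100 cells. Of Gzmb UMIs, 20.8% came from cluster 24, led by the erythroid genes Klf1 and Rhd, and 13.3% from the 39 cells of cluster 41, led by Mcpt8, Cpa3 and Fcer1a, genes of basophils and mast cells. In cluster 41, 97.4% of cells held a Ccl3 UMI and 79.5% a Gzmb UMI. Cluster 31, led by Zbtb16 and Il4, held 869 CPM of Xcl1, 700.2 CPM of Ifng and 3073 CPM of Ccl5.

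Shares of cells with at least 1 UMI depend on depth and on free RNA in the droplets, so they are given with the share in follicular B-like cells and after thinning each cell to 1000 UMIs. Ccl5 was found in 99.5% of NK-like and 95.5% of memory CD8 T-like cells (98.8% and 91.7% thinned), against 12.6% of naive CD8 T-like cells (4.44% thinned) and 7.93% of follicular B-like cells (3.23% thinned). The mean Ccl5 level of naive CD8 T-like cells in CPM was above that of follicular B-like cells. By share of cells with a UMI, naive CD8 T-like cells were close to the B-cell share for Ccl5. They were far from it for Nkg7, at 70.2% (32.4% thinned) against 1.69% (0.650% thinned), and for Prf1, at 15.7% (4.43% thinned) against 1.12% (0.438% thinned). For Gzma, Gzmb, Ifng, Ccl3 and Xcl1 no more than 1.38% of naive CD8 T-like cells held a UMI (0.501% or less thinned), and for Ccl4 the 4.99% of naive cells lay below the 7.21% of B-like cells.

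In CD4 T-like cells Ifng was found in 13.6% (8.32% thinned) against 1.00% of follicular B-like cells (0.399% thinned). Gzma was found in 95.4% of cluster 16 and 10.2% of cluster 19 (92.4% and 5.44% thinned). Gzmk was found in 44.6% of cluster 13 and 1.36% of cluster 7 (23.6% and 0.438% thinned), and in 0 of 344 cells of cluster 19, which allows up to 0.872% of cells with a UMI and sets no limit on cells that express it. Thinning left out 14 to 222 cells of the 5 classes with fewer UMIs. The median cell held 4019 UMIs in naive CD8 T-like, 4486 in memory CD8 T-like, 3098 in CD4 T-like, 3226 in NK-like and 2551 in follicular B-like cells. Droplet UMIs cover counting error only.

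Within cluster 13, cells with a Gzma UMI held Gzmb more often than the rest, and Gzmk about as often. Of the 99 cells with a Gzma UMI, 57.6% also held Gzmb, against 20.1% of the rest, 42.4% held Gzmk, against 44.9%, and 7.07% held Xcl1, against 22.1%. Of the 365 cells with a Gzmk UMI, 20.8% held Gzmb, against 27.8% of the rest, and 66.8% held Ccl4, against 49.8%. Ccl3 and Ccl4 went together: 86.6% of the 187 cells with Ccl3 held Ccl4, against 48.7% of the rest. In cluster 16, 63.2% of the cells with Gzma held Gzmb, against 22.6% of the rest. The cells with Gzma were shallower in both clusters (medians of 2380 against 2950 UMIs in cluster 13 and 2790 against 3500 in cluster 16). These shares pool the replicates and have no test.

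Between populations, tests were made on cells gated by antibody tags alone, with no transcript used. CD8 T cells (CD8 and T cell receptor tags) were divided by Ly6C, which rises on memory CD8 T cells, and CD62L, a homing receptor of naive and central memory cells. The populations were Ly6C-high CD8 T cells (868 cells), Ly6C-low CD62L-positive CD8 T cells (1836), CD8 T cells low in both tags (558) and NK cells (927). Cells counted as low in both tags had no CD62L UMI at all. The counts were compared with edgeR's quasi-likelihood test, with the replicate as a block and p-values adjusted by Benjamini-Hochberg over all genes tested. A call is an adjusted p under 0.05.

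In Ly6C-high against Ly6C-low CD62L-positive CD8 T cells, 6 of the 10 genes passed the filter on low counts, and all 6 that passed were called higher, where 10.5% of 5880 genes were. A gene can pass this filter through the population where it is high, so nothing is read from the count. Ccl5 was at 2729 CPM in the lowest, 5058 in the median and 8923 in the highest replicate of the Ly6C-high cells, and at 232, 757 and 1356 CPM in the Ly6C-low cells. The 2 populations did not overlap, and the log2 fold was 3.02 ± 0.29 (SE, adjusted p = 4.0e-05). Ifng rose by 3.23 ± 0.35, from 21.4 ± 17.3 to 180 ± 69.5 CPM, and Xcl1 by 2.17 ± 0.23, from 32.7 ± 18.9 to 119 ± 19.5 CPM. Ccl4 rose by 1.87 ± 0.30. The changes of Prf1 (0.88 ± 0.11) and Nkg7 (0.83 ± 0.06, from 531 ± 122 to 927 ± 171 CPM) were smaller. All 6 were higher in 10 of 10 replicates. Gzma, Gzmb, Gzmk and Ccl3 were not tested: in the Ly6C-high cells their means were 22.2, 10.2, 4.66 and 21.0 CPM. Without the filter 8 of the 10 were called higher and 0 lower.

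CD8 T cells low in both tags held more Gzmk and Gzma than Ly6C-high cells. These were the 2 genes called of the 8 that passed the filter, where 4.95% of 3634 genes were called higher. Both had missed the filter in the comparison above and passed here through the cells low in both tags, so nothing is read from the count. Gzmk was at 43.2, 94.1 and 269 CPM (lowest, median and highest replicate) against 0, 4.64 and 10.9 CPM, with no overlap and a log2 fold of 4.49 ± 0.41. Gzma was at 0, 168 and 1881 CPM against 0, 9.66 and 96.3 CPM, and it was higher in 9 of 10 replicates (3.52 ± 0.79, adjusted p = 0.017). The populations overlapped for Gzma. Ccl5 (0.93, adjusted p = 0.081), Ifng (1.25, adjusted p = 0.053) and Ccl4 (1.503, adjusted p = 0.088) missed the threshold, as did Nkg7, Prf1 and Xcl1. Gzmb (121 against 10.2 CPM on average) and Ccl3 (149.5 against 21.0 CPM) did not pass the filter. Without the filter Gzmb was called (3.20 ± 0.25), Ccl3 was not (1.95, adjusted p = 0.562), and Gzma was not (3.39, adjusted p = 0.056). With higher tag thresholds neither Gzmk nor Gzma passed the filter, and without R594C/+ replicate 4 the adjusted p of Gzma was 0.052. DESeq2 called 5 of the 8.

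NK cells by tags were above Ly6C-high CD8 T cells in the 9 genes that passed the filter, where 20.8% of 5301 genes were higher. Gzma, Gzmb and Ccl3 passed it through the NK cells, and without the filter 9 were called higher and Gzmk lower, so the count is no summary of the 10. Gzma was at 1627, 3173 and 4647 CPM (lowest, median and highest replicate) against 0, 9.66 and 96.3 CPM, with no overlap and a log2 fold of 6.95 ± 0.45. Ccl3 followed with 5.98 ± 0.31, Gzmb with 4.59 ± 0.21, Ccl4 with 4.22 ± 0.18, Xcl1 with 3.20 ± 0.12, Prf1 with 2.26 ± 0.22 and Ifng with 1.80 ± 0.23. Ccl5 (0.98 ± 0.20, adjusted p = 0.003) and Nkg7 (0.77 ± 0.14, adjusted p = 0.001) differed least and were higher in 9 of 10 replicates. Gzmk, at 0.961 CPM in NK cells and 4.66 CPM in Ly6C-high cells, did not pass the filter (-2.16 without it, adjusted p = 0.042). The gated cells were not the same as the classes. Gated NK cells averaged 3105 CPM of Gzma and 523 CPM of Prf1, less than NK-like cells. Ly6C-low CD62L-positive cells averaged 732 CPM of Ccl5, more than naive CD8 T-like cells. How pure the gates were was not measured, and the folds are those of the gated cells.

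**Figure D2:**
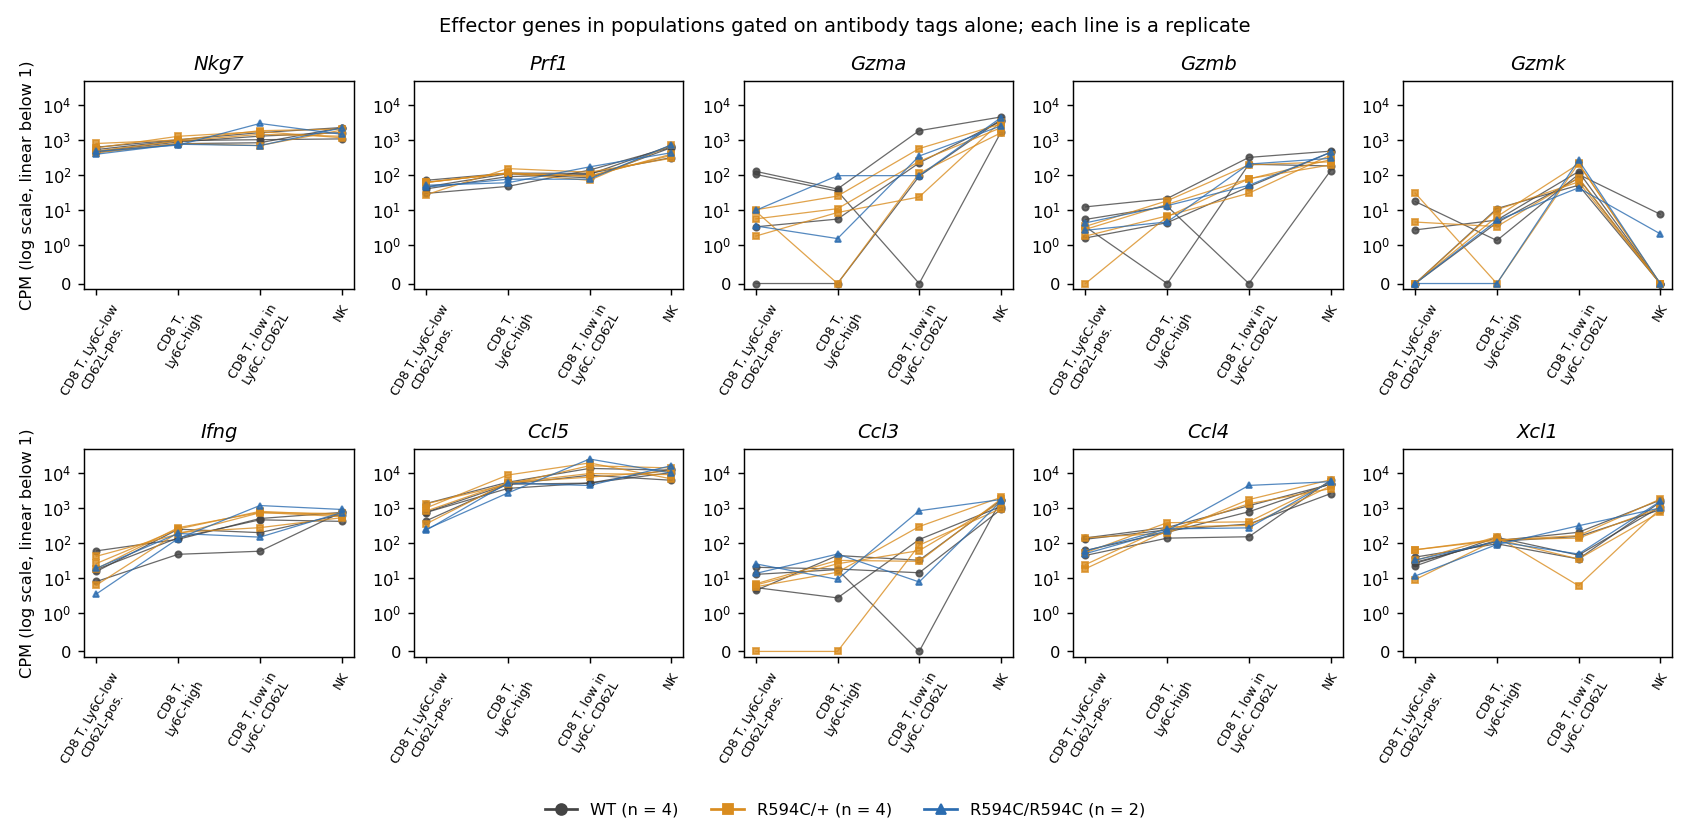
Level of each gene (y axis, CPM, log scale that is linear below 1) in the 4 populations gated by antibody tags (x axis). Each line joins the values of 1 replicate and is coloured by genotype. Ccl5 steps up from the Ly6C-low CD62L-positive to the Ly6C-high cells in all 10 replicates, Gzmk peaks in the CD8 T cells low in both tags (125 CPM on average), and Gzma is highest in NK cells (3105 CPM).

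Genes that work with the 10 were read from fixed lists in the same fits. All list counts are over genes that passed the filter on low counts. A gene can pass it through the population where it is high, so nothing is read from the counts alone. Of 6 other killing molecules and their inhibitors 4 were tested, and all 4 were higher in Ly6C-high cells (median log2 2.42, against -0.02 over all genes). Gzmm, a further granzyme gene, was at 3.29, Fasl, the death ligand, at 2.89 and Serpinb9, an inhibitor of granzyme B, at 1.95. Of the granule release machinery, 3 of 9 were higher and 1 lower (median 0.21; of all genes, 7.7% were lower), among them Ctsw (0.93), a protease of the granules, and Lyst (0.70), a regulator of their size. Of the effector transcription factors, 5 of 8 were higher and 0 lower (median 1.18), led by Tbx21 (2.93) and Eomes (1.98). Of 12 receptors of NK and memory cells 7 were tested, and all 7 were higher (median 2.73, with Klrc1 at 3.45 and Klrk1 at 3.13). The naive T programme was higher in 1 and lower in 5 of 7 (median -0.51, with Igfbp4 at -2.53 and Lef1 at -0.95).

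Of the chains of the interferon gamma receptor, Ifngr1 (0.65) was higher and Ifngr2 (-2.76) lower. Of the interferon gamma response genes, 1 of 10 was higher and 5 were lower (median -0.49). The lower ones include Iigp1 (-1.79) and Igtp (-1.06), GTPases of defence against intracellular parasites, and the higher one is Socs1 (0.44), a brake on cytokine signals.

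In CD8 T cells low in both tags against Ly6C-high cells (median over all genes 0.03, with 8.23% lower), 4 of 8 transcription factors were higher, led by Zeb2 (2.10) and Bhlhe40 (1.90), and Stat4 was lower (-0.60; list median 0.32). Gzmm was lower by -2.90 on the log2 scale, so Gzmm and Gzmk were called in opposite directions here. It was the 1 gene called of 4 other killing molecules (median 0.29). Of the release machinery Ctsc, the activator of granzymes, was higher (0.90) and Lyst and Ctsw were lower, of 6 tested (median -0.23). NK and memory receptors were lower in 4 of 7 (median -0.73), the naive T programme in 3 of 6 (median -0.69), and the interferon gamma response was split 1 higher and 1 lower of 6 (median 0.10).

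In NK against Ly6C-high CD8 T cells (median over all genes 0.01, with 20.8% lower), 5 of 9 genes of the release machinery were higher and 0 lower (median 0.24), with Stx11 (2.68), a protein of granule fusion, and Ctsc (1.498). Gzmm was lower (-2.70), while Serpinb9 (3.02), Serpinb6b (2.47) and Fasl (1.22) were higher (list median 1.84). Of the transcription factors 7 of 8 were higher (median 0.90), led by Zeb2 (3.47) and Bhlhe40 (3.44), and Hopx was lower (-0.30). The NK and memory receptors were higher in 9 of 10 (median 1.62) and the naive programme lower in 6 of 6 (median -1.28). The interferon gamma response was higher in 2 and lower in 3 of 8 (median -0.23).

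The surface of CD8 T cells with and without a UMI of a gene was compared within each replicate, as tag UMIs per 1000 tag UMIs of the cell, with a two-sided exact sign-flip permutation test adjusted over 72 pairs of a gene and a tag. The 12 tags were chosen for T cell memory and homing. Gzma, Gzmb, Gzmk and Ccl3 had enough positive cells (20) in only 2, 2, 3 and 4 replicates and were not tested. Of the 72 pairs of the other 6 genes, 46 passed. Cells with a UMI carried more Ly6C for each of the 6: 26.8 against 7.89 for Ccl5, 17.8 against 7.74 for Nkg7, 22.7 against 13.6 for Prf1, 29.3 against 14.3 for Ifng, 27.0 against 13.5 for Ccl4 and 34.8 against 12.7 for Xcl1. This held in every replicate tested (10 of 10, or 9 of 9 for Ifng and Xcl1; exact permutation, adjusted p = 0.0094 and 0.011, the smallest these numbers of replicates gave). With cells thinned to 1000 UMIs it held for Ccl5 (29.6 against 8.87) and Nkg7 (18.0 against 14.6, adjusted p = 0.039 by the exact permutation test). Thinned, it missed the threshold for Prf1, Ifng and Ccl4 (exact permutation, adjusted p = 0.076, 0.057 and 0.249), and Xcl1 had enough positive cells in only 3 replicates to be tested.

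CD122, the interleukin 15 receptor chain of memory and NK cells, and CD183, the chemokine receptor CXCR3, were also higher on cells with any of the 6. Thinned, CD122 missed the threshold for Ifng and Ccl4 (exact permutation, adjusted p = 0.076 and 0.1995) and CD183 for Prf1 (adjusted p = 0.349, exact permutation). CD62L separated them: cells with Ifng carried less (6.78 against 11.8, lower in 9 of 9 replicates, exact permutation, adjusted p = 0.011), as did cells with Ccl5 (9.52 against 12.2, adjusted p = 0.016 by the exact permutation test), while cells with Xcl1 did not differ beyond the spread (11.48 against 11.46; adjusted p = 0.97). KLRG1, a marker of terminal effector cells, was at 3.03 against 1.08 for Ifng and at 1.18 against 1.24 for Xcl1 (adjusted p = 0.73). Cells with a UMI also held more RNA, by 370.3 UMIs (Ifng) to 1231 UMIs (Xcl1) in the median. Of the 60 pairs of the 5 genes tested in both ways, 40 passed with all UMIs and 26 with cells thinned to 1000 UMIs. The CD62L calls of Ifng and Ccl5 and the KLRG1 call of Ifng were among the 26.

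**Figure D3:**
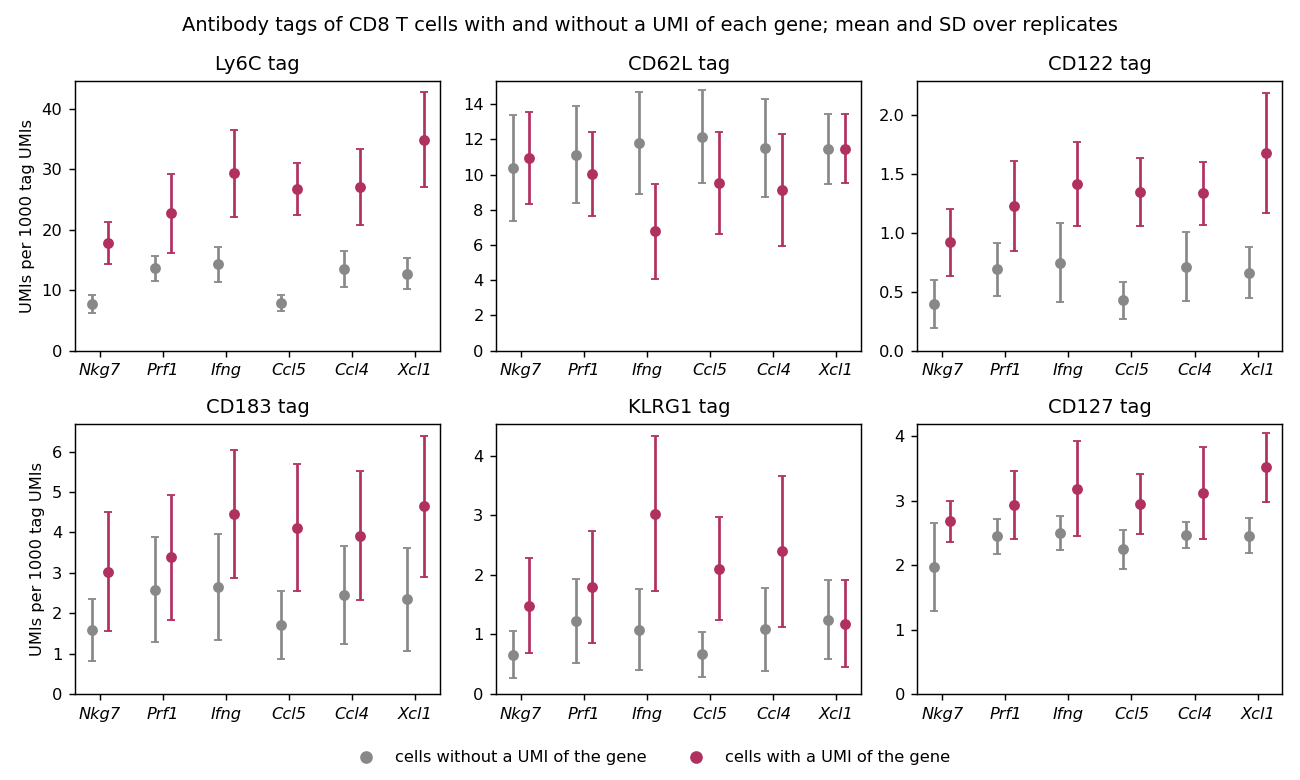
Share of 6 of the 12 antibody tags (y axis, UMIs per 1000 tag UMIs) on CD8 T cells without (grey) and with (red) a UMI of each gene, as mean and SD over 9 or 10 replicates. The Ly6C panel separates the pairs for all 6 genes, and in the CD62L panel the red points of Ifng (6.78) and Ccl5 (9.52) lie below their grey partners.

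Likeness of pattern was measured as Pearson's r of log2(CPM + 1) over the 42 clusters, which share captures and depth, and is given as a description. Ccl3 and Ccl4 were most alike among the 10 (0.884), followed by Nkg7 with Xcl1 and with Ifng (0.841 each). Ccl3 and Ccl4 were unlike Prf1 (-0.016 and -0.012) and Ifng (0.013 and 0.035). Of 11772 other genes, the nearest to Gzma were Klra9 (0.884), Klra13-ps and Klre1, a group of NK receptor genes and a pseudogene that may share reads. Nearest to Ifng were Fasl (0.917) and Il2rb (0.915), nearest to Xcl1 were Samd3 (0.911), Klrc1 (0.897) and Cd160 (0.896), and nearest to Nkg7 were Ctla2a (0.884), Baiap3 (0.871) and Cst7 (0.862). Gzmk was nearest to Esm1 (0.803), Epha3 and Rgs16, Gzmb to Gzmc (0.791), Sytl3 and Itga2, Prf1 to Klrc2 (0.836), Il2rb and Pde2a, and Ccl5 to Samd3 (0.825), Kcnj8 and Klre1. Ccl3 and Ccl4 shared Cd244a (0.776 and 0.728), an NK receptor gene.

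The genotypes were then compared in each class, with the same test over the 10 replicates. In whole samples Ccl5 ran from 901 to 1501 CPM in WT, 1058 to 1320 in R594C/+ and 1018 to 1273 in R594C/R594C, which overlap. Over the 10 replicates Gzmk ran from 1.63 to 10.7 CPM, Gzmb from 12.9 to 45.2 CPM and Gzma from 72.0 to 181 CPM. In such sums fewer cells of a type and less RNA per cell cannot be told apart.

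In naive CD8 T-like cells 6 of the 10 genes passed the filter, and edgeR called 0 of them in R594C/R594C minus WT (0.0872% of 8026 genes were called), in R594C/+ minus WT (0.137%) and in R594C/R594C minus R594C/+ (0.0997%). Nkg7, the most evenly held, was at 443, 398, 492 and 446 CPM in WT, 613, 696, 379 and 501 in R594C/+ and 463 and 379 in R594C/R594C, and the genotypes overlapped. At an unadjusted p under 0.05 the counts were 1 (Xcl1), 0 and 0, and DESeq2 called 0 in each.

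In memory CD8 T-like cells all 10 genes passed the filter. EdgeR called 0 in R594C/R594C minus WT (0.0552% of 9057 genes), 0 in R594C/+ minus WT (0.232%) and 0 in R594C/R594C minus R594C/+ (0.0662%), with 1 (Ccl3), 2 (Ccl5 and Xcl1) and 1 (Xcl1) at an unadjusted p under 0.05, and DESeq2 called 0 in each. Ccl5 was at 9352, 8627, 7891 and 7669 CPM in WT, 14940, 15030, 10230 and 9899 in R594C/+ and 15010 and 8723 in R594C/R594C. All 4 R594C/+ replicates lay above WT, 1 of the 2 R594C/R594C replicates lay among WT, and the log2 fold of R594C/+ minus WT was 0.53 ± 0.20 (adjusted p = 0.601).

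Gzmk in the same cells was at 41.1, 19.2, 21.8 and 42.2 CPM in WT, 128, 136, 65.2 and 41.2 in R594C/+ and 143 and 16.45 in R594C/R594C. Ccl3 was at 43.8, 63.1, 53.5 and 30.3 CPM in WT, 107, 156, 62.5 and 78.1 in R594C/+ and 485 and 53.0 in R594C/R594C (2.46 ± 0.79 for R594C/R594C minus WT, adjusted p = 0.589). Replicate 1 of R594C/R594C was the highest of all for Gzmk, Ccl3, Ccl4 (2265 against 333 CPM in replicate 2) and Ifng (747 against 356 CPM), and replicate 2 lay within or near WT. Prf1 ran from 76.9 to 144 CPM over the 10 replicates and overlapped between genotypes. Xcl1 was at 194 to 291 CPM in WT, 243 to 325 in R594C/+ and 213 and 237 in R594C/R594C, so that both R594C/R594C replicates lay below all of R594C/+ (-0.33 ± 0.13, adjusted p = 0.785).

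The make-up of the class also differed between replicates, and its part in the values above was not tested. Cluster 13, the Gzmk-rich one, made up 21.4%, 18.9%, 16.1% and 16.1% of memory CD8 T-like cells in WT, 53.5%, 50.8%, 32.8% and 22.1% in R594C/+ and 54.7% and 16.8% in R594C/R594C. Within cluster 13, Gzmk was at 301.6, 141, 160 and 408 CPM in WT, 310, 370, 255 and 243 in R594C/+ and 348 and 124 in R594C/R594C, so that WT reached the highest value. Within cluster 7, Ccl5 was at 6416 to 7705 CPM in WT, 6960 to 9856 in R594C/+ and 6147 and 7779 in R594C/R594C, which overlap. In neither cluster alone was any of the 10 genes called.

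**Figure D4:**
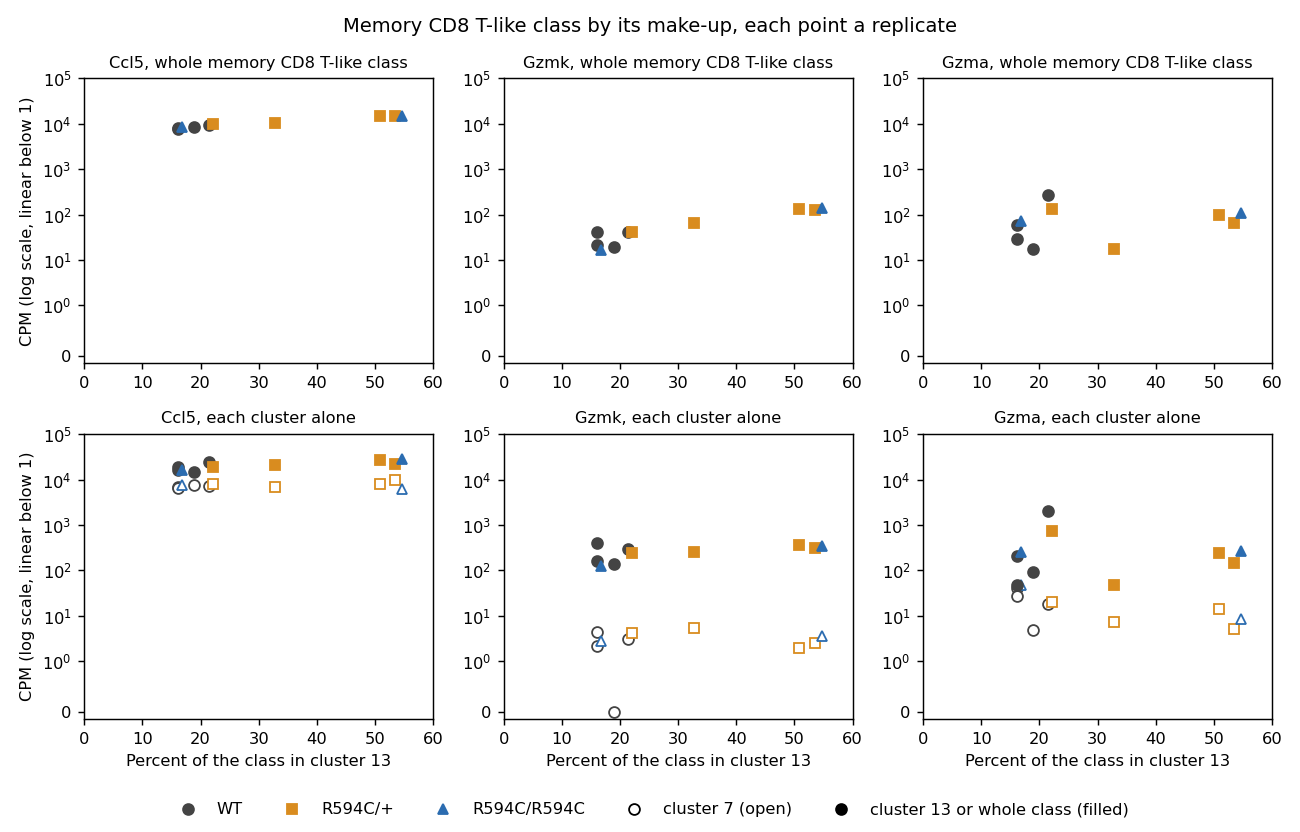
Level of Ccl5, Gzmk and Gzma (y axis, CPM, log scale that is linear below 1) against the percent of memory CD8 T-like cells in cluster 13 (x axis), 1 point for each replicate, coloured by genotype. The upper row shows the whole class and the lower row cluster 7 (open) and cluster 13 (filled) alone. The 3 replicates over 50% hold the highest Ccl5 and Gzmk of the class (128 to 143 CPM of Gzmk), and in cluster 13 alone Gzmk lies between 124 and 408 CPM along the whole axis.

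In CD4 T-like cells 9 of the 10 genes passed the filter, and edgeR called 0 in R594C/R594C minus WT (0.0424% of 9435 genes), in R594C/+ minus WT (0.0954%) and in R594C/R594C minus R594C/+ (0.053%), with 0, 2 and 1 at an unadjusted p under 0.05. DESeq2 called 0 in each. Ifng was at 158, 176, 140 and 181 CPM in WT, 243, 262, 159 and 253 in R594C/+ and 230 and 63.8 in R594C/R594C. The R594C/R594C replicates lay on both sides of WT. Cluster 9, the Ifng-rich one, made up 43.2%, 27.9%, 32.6% and 31.4% of CD4 T-like cells in WT, 82.6%, 65.4%, 26.8% and 45% in R594C/+ and 33.2% and 17.3% in R594C/R594C. Within cluster 9, Ifng was at 384 to 611 CPM in WT, 299.8 to 599.9 in R594C/+ and 641 and 359 in R594C/R594C, and none of the 10 genes was called in cluster 3 or 9 alone. Without R594C/R594C replicate 1 Ifng was called lower in R594C/R594C minus WT (-1.31, adjusted p = 0.018) and in R594C/R594C minus R594C/+ (-1.71, adjusted p = 9.0e-04), and then R594C/R594C is a single replicate.

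In NK-like cells 9 of the 10 genes passed the filter. EdgeR called 0 in R594C/R594C minus WT (0.0363% of 5512 genes), 0 in R594C/+ minus WT (0.218%) and 0 in R594C/R594C minus R594C/+ (0.0544%), with 1, 0 and 1 at an unadjusted p under 0.05 (Ccl5 in both), and DESeq2 called 0 in each. Ccl5 was at 16290, 13860, 14930 and 14510 CPM in WT, 14300, 15430, 14860 and 16210 in R594C/+ and 16760 and 16780 in R594C/R594C. The 2 R594C/R594C replicates were the highest, by a log2 fold of 0.19 ± 0.05 over WT (adjusted p = 0.493). Gzma (7386, 4985, 4412 and 4871; 4169, 4246, 4797 and 5629; 4377 and 5223 CPM) overlapped between genotypes. In clusters 16 and 19 tested alone, none of the 10 was called.

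No gene of the lists reported was called in any of the 4 T and NK classes or in follicular B-like cells in any of the 3 genotype comparisons. Of all genes tested, 0.0363% to 0.506% were called in these comparisons. For R594C/R594C minus WT in memory CD8 T-like cells their medians were -0.08 for the release machinery, 0.27 for other killing molecules, 0.03 for transcription factors, -0.25 for the naive programme, -0.09 for NK and memory receptors and -0.02 for the interferon gamma response, against 0.00352 over all genes. Medians differed between classes. The interferon gamma response was at -0.40 in naive CD8 T-like cells (0 of 10 genes above 0) and -0.31 in CD4 T-like cells (1 of 10). It was at -0.20 in follicular B-like cells (2 of 11) and 0.21 in NK-like cells (6 of 7). In CD4 T-like cells the naive programme was at 0.64 in R594C/R594C minus R594C/+ (7 of 7) and -0.49 in R594C/+ minus WT (1 of 7). The lists were not tested as sets.

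**Figure D5:**
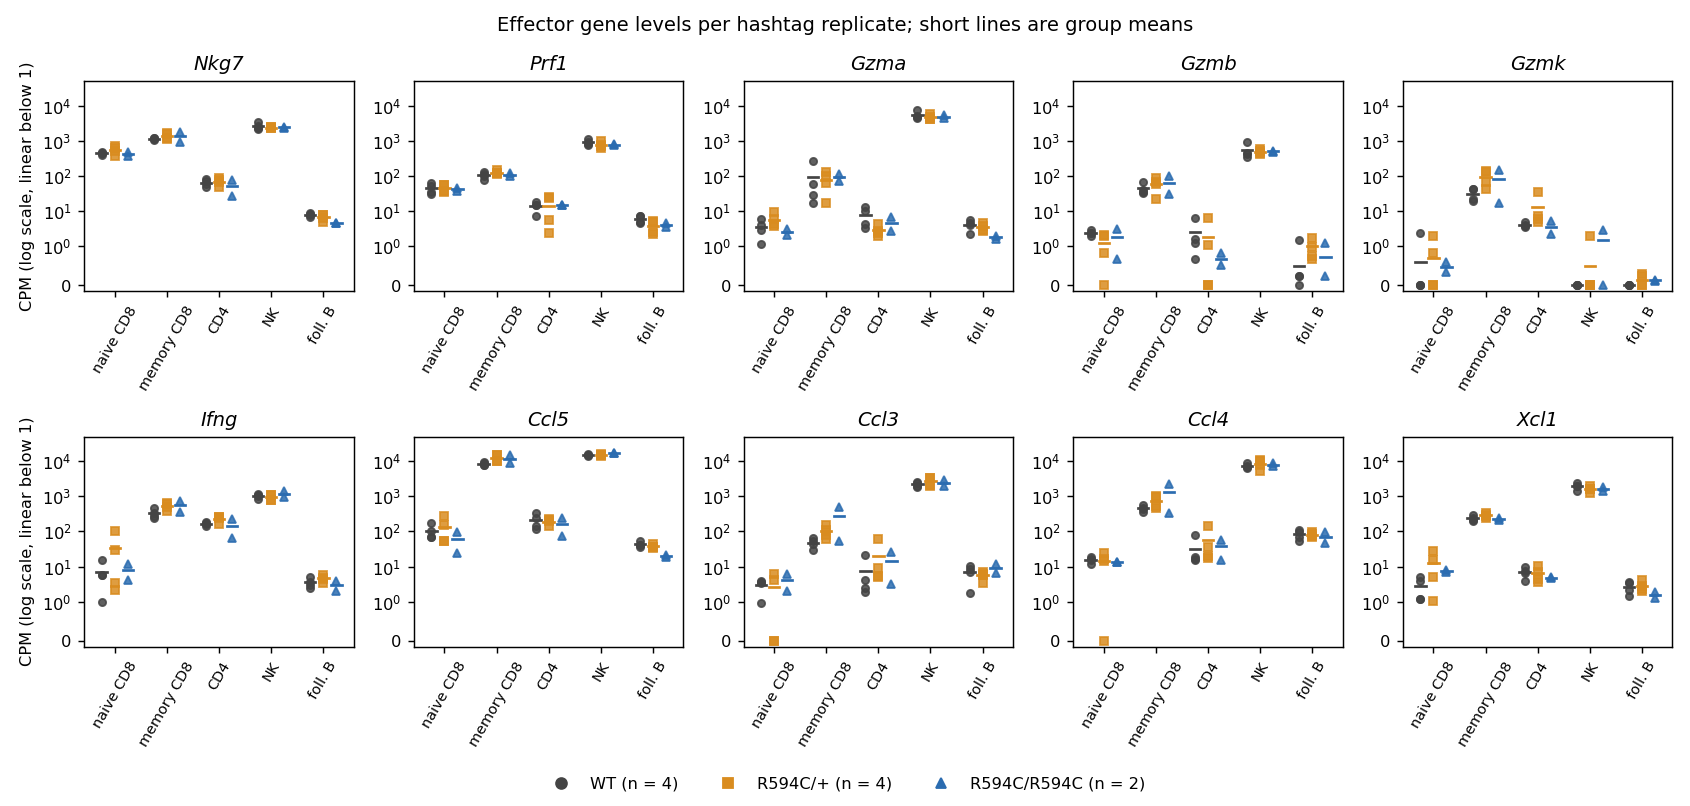
Level of each gene (y axis, CPM, log scale that is linear below 1) in the 4 T and NK classes and in follicular B-like cells (x axis), 1 point for each replicate, coloured by genotype, with short lines at the group means. In follicular B-like cells the 2 R594C/R594C points of Ccl5 (21.35 and 19.2 CPM) lie below the other 8, which start at 33.7 CPM.

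Follicular B-like cells, taken as background, had the only calls. Of the 8 genes that passed the filter, edgeR called 1 in R594C/R594C minus WT (0.175% of 10868 genes), 0 in R594C/+ minus WT (0.377%; 1 at an unadjusted p under 0.05, 0 by DESeq2) and 1 in R594C/R594C minus R594C/+ (0.506%). Both calls were Ccl5, at 36.8, 40.8, 41.1 and 53.2 CPM in WT, 33.7, 36.9, 43.9 and 34.9 in R594C/+ and 21.35 and 19.2 in R594C/R594C. Ccl5 fell by 1.08 ± 0.13 on the log2 scale against WT (adjusted p = 1.2e-05) and by 0.91 ± 0.13 against R594C/+ (adjusted p = 0.00028), with no overlap. With hashtags called by a margin rule both calls were lost and the folds were 0.0223 (adjusted p = 0.9995) and 0.0406 (adjusted p = 0.992). Nkg7 (-0.77 ± 0.23, adjusted p = 0.321) and Gzma (-1.18 ± 0.37, adjusted p = 0.428) missed the threshold.

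The Ccl5 and Nkg7 levels were small beside those of the whole capture. Follicular B-like cells held 3.66%, 3.035% and 1.78% of the Ccl5 level of all cells of their capture in WT, R594C/+ and R594C/R594C, and 3.56%, 3.28% and 2.44% of that of Nkg7. For Ccl4 (20.65%, 16.47% and 13.68%) and Prf1 (15.48%, 10.91% and 12.32%) the share held by follicular B-like cells was larger. Of these cells, 517 of 4974 (10.4%), 489 of 5251 (9.31%) and 309 of 6367 (4.85%) held a Ccl5 UMI. The 5 T cell markers in the same cells, all detected, summed to 44.3 to 49.1 CPM in WT, 33.0 to 42.7 in R594C/+ and 34.2 to 35.1 in R594C/R594C. In R594C/R594C minus WT 5 of 5 were below 0 and 0 were called (median log2 -0.50). The sums of R594C/R594C lay within those of R594C/+, where Ccl5 did not overlap, with 4 of 5 below 0 and 0 called (median -0.29). In R594C/+ minus WT 5 of 5 were also below 0 (median -0.19), with 0 called. The 2 CD8 markers summed to 3.66 to 7.02 CPM in WT, 2.34 to 5.001 in R594C/+ and 2.65 to 3.15 in R594C/R594C, and the 1 that was tested, of R594C/R594C minus WT, was at -1.05 and not called. Neutrophil markers summed to 34.7 to 50.8, 158 to 169 and 82.8 to 83.7 CPM, erythroid markers to 81.3 to 87.4, 213 to 240 and 240 to 255 CPM, and the 8 NK markers to 52.2 to 64.5, 60.6 to 66.4 and 69.9 to 72.3 CPM. Most of the NK sum was Tyrobp (48.8, 49.9 and 61.6 CPM), which myeloid cells also express, while Ncr1 was at 0.677, 0.442 and 0.291 CPM and Klre1 at 1.33, 2.26 and 0.857 CPM, and 2 of the 3 NK markers tested in R594C/R594C minus WT were below 0. Their part in the Ccl5 result was not tested. With doublets kept the Ccl5 folds were -0.54 (adjusted p = 0.979) and -0.32 (adjusted p = 0.896), and with classes gated by surface tags -1.68 (adjusted p = 0.066) and -0.89 (adjusted p = 0.414). The share of cells removed as doublets within a hashtag was 9.99% in R594C/R594C, against 3.39% in WT and 4.16% in R594C/+. This share was calculated, not observed. It follows from the doublets seen between hashtags (1543, 1295 and 1837) and the number and size of the hashtags, and is larger with 2 hashtags than with 4.

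The shares of the classes were compared last, since a spleen's supply of these transcripts depends on both share and level. The WT replicates had 7.76% ± 2.17 memory CD8 T-like cells, the R594C/+ replicates 6.80% ± 0.98 and the R594C/R594C replicates 5.46% ± 0.45 (mean ± SD). NK-like cells made up 2.37% ± 0.58, 2.79% ± 0.55 and 2.22% ± 0.69. Naive CD8 T-like cells ranged most, from 0.787% in R594C/+ replicate 1 to 11.4% in R594C/+ replicate 3. Cluster 7 was at 6.34% ± 1.73, 4.19% ± 1.56 and 3.45% ± 1.17. After adjustment, the correlation with the number of R594C copies passed a two-sided exact permutation test in no class (lowest p = 0.044, for cluster 7, adjusted p = 0.489 by this exact test). A comparison of the 2 R594C/R594C with the 4 WT replicates could not reach p under 0.0667 by an exact permutation test.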

How the data were processed

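Each genotype was 1 droplet capture, deposited as matrices of raw UMI counts of genes, antibody tags and hashtags, which the authors made with Cell Ranger 5.0.0, per the file headers. Cell Ranger, STAR, Seurat 3.1.4 and build mm10 are named in the submitters' processing notes. Barcodes passed with 200 genes or more and no more than 10% mitochondrial UMIs. HTODemux (Seurat 5.3.0, quantile 0.99) assigned the hashtags, and doublets within a hashtag (3.39%, 4.16% and 9.99% of single cells) were removed by simulated doublets, scored without the 10 genes. The number removed was the one calculated from the doublets between hashtags. Cells were clustered (2000 variable genes, 30 components, 20 neighbours, Leiden resolution 1.5 in leidenalg 0.10.2) without these genes, receptor segments and sex-linked genes, and named from fixed markers found at 2-fold or more.

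Counts were summed per replicate and class (10 cells or more) and tested with edgeR 4.0.16 (robust quasi-likelihood, TMM, filterByExpr, Benjamini-Hochberg at 0.05). The script was tested on simulated data. The planned CD44 gate was replaced, since only 215 of 40987 cells held a CD44 tag UMI, by gates on Ly6C and CD62L. Their thresholds (8 and 3 UMIs) were set after seeing the tags. Cells low in both tags had fewer than 8 Ly6C UMIs and no CD62L UMI, a limit that stayed in place with higher tag thresholds. Ly6C-low CD8 T cells with some CD62L UMIs but fewer than 3 were in neither population. All 10 genes were described in each class, with list genes named if called (at most 4) and the 3 genes most alike per member. Alternatives were DESeq2 1.42.0, no filter, a replicate block, expressed sex as a covariate, doublets kept, a margin rule for hashtags (doublets also kept), classes from surface tags, and each replicate left out. The summary of a list of receptors is not reported here. Genes, lists and tests were chosen with earlier results of these data known.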

Additional observations from a re-analysis of the deposited data

Results flagged for a closer look

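In groups of 4 replicates a value was singled out when its gap to the nearest other replicate took more of the range than Dixon's 95% limit for 4 values, which chance does in about 1 of 20 groups. Of 89 groups of a gene, class and genotype, 9 were singled out. In naive CD8 T-like cells Ccl3 was lowest in WT replicate 3 (0.978 CPM, the others 3.503 to 3.96). In memory CD8 T-like cells Gzma was highest in WT replicate 1 (273 CPM, the others 17.1 to 59.4), and in NK-like cells Gzmb was highest in the same replicate (907 CPM, the others 349 to 439).

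The other 6 were in CD4 T-like cells. Gzmb was at 6.38 CPM in WT replicate 3 (the others 0.679 to 1.61), and Gzmk at 34.7 CPM in R594C/+ replicate 2 (the others 4.92 to 7.14). Ccl3 was at 21.75 CPM in WT replicate 1 (the others 1.91 to 4.07) and at 59.8 CPM in R594C/+ replicate 1 (the others 4.92 to 9.09). Ccl4 stood out in the same replicates, at 78.1 CPM in WT replicate 1 (the others 15.2 to 18.3) and 147 CPM in R594C/+ replicate 1 (the others 17.4 to 37.0).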

How the results depend on the processing

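The calls of Ly6C-high against Ly6C-low CD62L-positive CD8 T cells and of NK against Ly6C-high CD8 T cells kept their direction and side of the threshold in 78 of 78 and 117 of 117 recomputed values, over the tools, filters, tag thresholds and left-out replicates tried. For CD8 T cells low in both tags, 87 of 100 did. There 2 genes were called in the reported fit, 0 with higher tag thresholds, 5 by DESeq2 and 1 to 3 with a replicate left out. Its uncalled folds changed sign for Prf1 without a filter (-0.0713), with higher thresholds (-0.0159), without WT replicate 2 (-0.05) and without R594C/R594C replicate 1 (-0.18), and for Xcl1 without R594C/+ replicate 4 (0.01). With a replicate left out they ran from -0.18 to 0.156 for Prf1 and from -0.55 to 0.01 for Xcl1. With thinned cells 26 of 60 tag pairs passed in place of 46 of 72. Xcl1 could not be tested then, and over the 60 pairs tested both ways 40 had passed. Nkg7 changed sign for CD62L (-1.41), CD49d (0.331) and CD27 (-0.164).

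By genotype, calls in memory CD8 T-like cells ran from 0 to 1 with a replicate left out (Ccl3, 3.31, adjusted p = 0.013, without R594C/R594C replicate 2), in CD4 T-like cells from 0 to 2 (Ifng), with 1 (Gzmk, -1.71, adjusted p = 0.027) without a filter, and in NK-like cells from 0 to 1 (Ccl5, 0.23, adjusted p = 0.016, without WT replicate 1). In follicular B-like cells 2 calls, both Ccl5, became 0 with doublets kept and 1 with surface-tag classes (Nkg7, -1.58, adjusted p = 0.035 by edgeR, and no longer Ccl5). They became 0 with the margin rule, which also kept doublets. There the Ccl5 folds were 0.0223 and 0.0406 and the Nkg7 fold was 0.0283. The cause was not tested. Replicate numbers did not pair the samples (correlations of -0.15 to 0.14); with the replicate block the Ccl5 folds were -0.96 and -0.78, and no call changed. Left-out pairs of R594C/R594C rest on 1 replicate, assumed to vary like the other groups. Members under 10 CPM in a class are limited by depth.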

Other observations

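Gzmb had a source outside T and NK cells that differed between replicates. In cluster 24, whose top genes Klf1, Car1, Ermap and Aqp1 are those of erythroid precursors, Gzmb was at 197 CPM in WT replicate 1 and 0 in WT replicate 2, at 362, 1.40, 627 and 13.3 CPM in R594C/+ replicates 1 to 4, and at 796 and 1.66 CPM in R594C/R594C replicates 1 and 2. It was found in 10.0% of the 239 cells of the cluster. The remaining 2 WT replicates had fewer than 10 cells there. The replicates fell at either end within each genotype.

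T-lineage clusters outside the named classes also held some of the 10 genes. Cluster 22, led by Trdc and other genes of the gamma delta receptor, held 1780 CPM of Ccl5, 590.0 CPM of Nkg7 and 463 CPM of Xcl1. Cluster 20, led by Fst, Myb and Crtam, held 584 CPM of Nkg7 and 39.6 CPM of Gzmk, with Gzmk from 0 to 121 CPM over the replicates. Regulatory T-like cells held 28.2 CPM of Gzmb against 1.86 CPM in CD4 T-like cells. Among B cells, marginal zone B-like cells held 206 CPM of Ccl4 and 14.6 CPM of Prf1, against 79.2 and 4.70 CPM in follicular B-like cells. These are values over replicates with at least 10 cells of the cluster, with no test.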
